A study of Mus musculus with 10 samples.

Results

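The genes described here encode the enzymes, regulators and transporters of sterol and fatty acid synthesis, measured by RNA-seq in cortex from 8-week-old male mice. They are 45 genes taken by symbol from the 13661 genes of the authors' deposited table, so their presence in it is no finding. Each of the 45 has a p-value there. The study compared 5 wild-type (WT) libraries with 5 libraries from mice with a Chd8 knock-in (KI) allele, which models a duplicated copy of this chromatin remodeller gene linked to autism. The labels give no cell type restriction, promoter or strain for the allele, and they do not say whether animals shared a litter. The deposited values are group comparisons and means over all 10 libraries, so the value in each library, the depth of each library and the spread within each genotype were not analysed here.

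Brain cholesterol is made almost entirely within the brain, because lipoproteins do not cross the blood-brain barrier. Acetyl-CoA is built into mevalonate, isoprenoids, squalene and then sterols, and the same acetyl-CoA pool feeds fatty acid synthesis, elongation and desaturation. When membrane sterol is low, the escort protein SCAP carries the SREBP transcription factors to the Golgi for cleavage, and the released fragments switch on the genes of both pathways. Sterol excess retains SCAP through the INSIG proteins, while oxysterols activate the liver X receptors (LXR), which drive export. Oligodendrocytes and astrocytes are the main producers in the adult, and neurons remove surplus cholesterol by 24-hydroxylation.

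SREBPs bind the sterol regulatory element, usually near sites for NF-Y (the CCAAT box) and Sp1 (the GC box). Promoter windows of 300 bases, 250 before to 50 after the start, were taken from RefSeq for GRCm38.p6 and were found for 37 of the 45 genes. The 8 without one were Sqle, Fdft1, Npc1, Scd1, Fads1, Scd2, Fdps and Abcg1. The 250 bases before the start are shown for 3 genes: Hmgcs1, which alone held the sterol element as searched, Lss, which had the smallest p of the 45, and Srebf2, which encodes the main activator of sterol genes. Lss and Srebf2 were chosen for display after their values were seen. The RefSeq gene record of Lss begins at 76531565, inside the stretch shown, because the table uses a later start. Capitals mark every match, on either strand, to the sterol element TCACNCCAC, the CCAAT box (CCAAT), the E-box (CACGTG) and the GC box (GGGCGG).
Hmgcs1, chr13:119690101-119690350, plus strand: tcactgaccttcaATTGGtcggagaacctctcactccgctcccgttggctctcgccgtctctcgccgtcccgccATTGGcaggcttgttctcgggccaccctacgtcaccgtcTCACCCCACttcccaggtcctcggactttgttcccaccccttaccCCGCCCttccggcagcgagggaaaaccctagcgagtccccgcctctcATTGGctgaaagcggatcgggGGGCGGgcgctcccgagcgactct
Lss, chr10:76531355-76531604, plus strand: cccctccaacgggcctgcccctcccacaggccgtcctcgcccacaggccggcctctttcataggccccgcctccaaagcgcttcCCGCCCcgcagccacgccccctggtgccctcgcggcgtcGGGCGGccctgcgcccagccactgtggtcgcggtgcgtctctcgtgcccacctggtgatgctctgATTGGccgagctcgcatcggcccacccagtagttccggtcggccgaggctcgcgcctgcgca
Srebf2, chr15:82147019-82147268, plus strand: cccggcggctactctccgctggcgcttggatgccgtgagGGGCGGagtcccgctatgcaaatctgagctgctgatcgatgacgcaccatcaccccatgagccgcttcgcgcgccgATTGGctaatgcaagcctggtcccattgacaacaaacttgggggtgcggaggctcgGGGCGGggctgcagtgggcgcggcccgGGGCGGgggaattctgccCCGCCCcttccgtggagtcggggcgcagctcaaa

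In the Hmgcs1 stretch the sterol element spans bases 137 to 129 before the start, with 3 CCAAT boxes and 2 GC boxes around it. The Lss stretch holds 1 CCAAT box and 2 GC boxes, and that of Srebf2 holds 1 and 4. Over the full windows, 28 of 37 genes held a CCAAT box (75.7%), against 42.5% of the 10703 genes of the table that have a window and 41.1% of the 27025 genes in the whole promoter table. A GC box was found in 30 of 37 (81.1%, against 69.1% and 38.2%), an E-box in 8 of 37 (21.6%, against 11.7% and 8.09%) and the sterol element in 1 of 37 (2.7%, against 1.36% and 1.44%). These are matches of letters in a fixed window, and functional sterol elements often differ from the letters searched.

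Chd8, the gene altered in these mice, averaged 2474 normalised counts and was 1.40-fold higher in KI (adjusted p = 0.00444, DESeq2) according to the authors' deposited table, with a 95% interval of 1.22 to 1.61. The header names no direction, and KI over WT is the reading on which Chd8 is higher, so all signs below rest on it. All 10 markers of cortical excitatory neurons were present in the authors' deposited table, with Camk2a the most abundant at a mean normalised count of 62823. So were 9 of 9 choroid plexus, 10 of 10 meningeal and 8 of 9 thalamic markers, so presence alone does not tell cortex from its neighbours. Over the whole of the authors' deposited table, 10 of 13660 genes (0.0732%) passed an adjusted p of 0.05 by the DESeq2 Wald test, of which 1 was higher in KI (0.00732%) and 9 lower (0.0659%).

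None of the 45 sterol and fatty acid genes passed that threshold, against 0.0732% of all genes in the authors' deposited table. None passed at 0.1 (0.0732% of all genes) or at 0.01 (0.0439%) either. The DESeq2 adjusted p deposited for each of the 45 was 0.99986. None had an unadjusted p under 0.05 either, while 440 of 13660 genes (3.22%) did. Their log2 fold changes ran from -0.13 to 0.19 with a median of 0.018, beside a median of 0.0025 over all genes of the authors' deposited table. Of the 45, 27 were above 0 and 18 below (40% negative), beside 48.4% negative over all genes. These counts describe the genes as a group, and no test of the group was made. Transcript length and Wald score had a Spearman correlation of 0.248 across the genes of the authors' deposited table (genes are no independent replicates), so medians by role are also given with this length trend removed where it moves them.

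The data were precise enough to bound most of these genes closely. The 95% interval of the log2 fold change, computed from the deposited standard errors, lay within ±0.25 for 37 of the 45 genes (82.2%, against 54.9% of all genes) and within ±0.5 for all 45 (against 88.5%). The genes are also more abundant than most, with a median of the mean normalised counts of 1132 in the authors' deposited table, against 549 over all genes. The smallest Wald score among the 10 genes that passed was 4.15 standard errors in size. At that score, the gene with the median standard error among the 45 would have needed an estimated log2 change of 0.30, Srebf2 one of 0.14 and Acacb one of 0.64. These sizes apply to the estimate at the observed cut-off and are not limits on the true change.

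**Figure D1:**
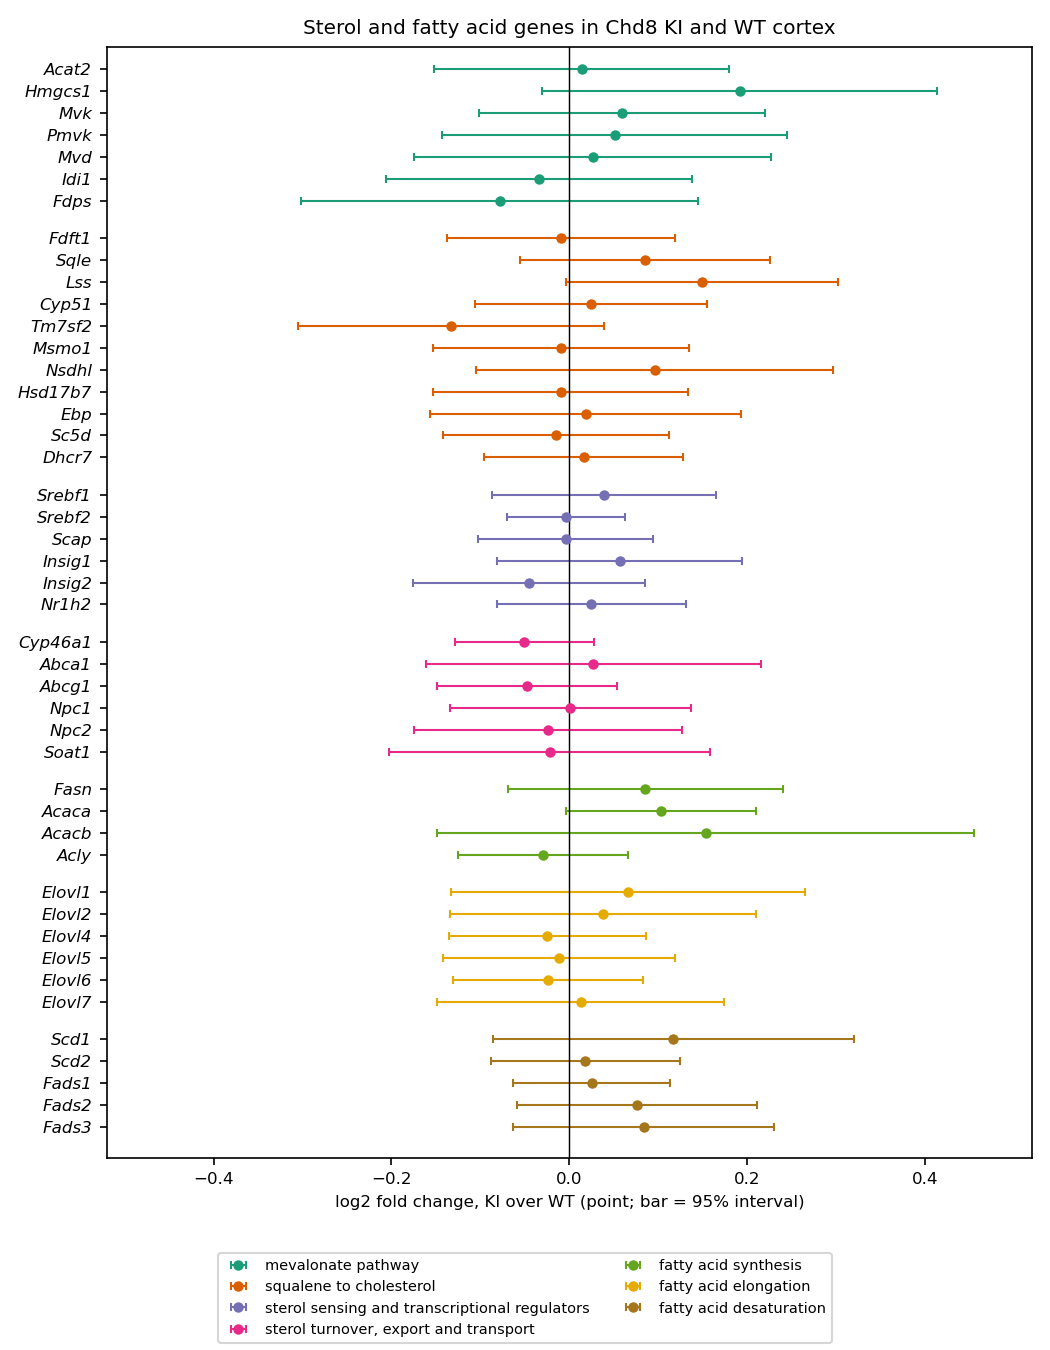
Log2 fold change, KI over WT, of each of the 45 genes (points) with its 95% interval (bars), from the authors' deposited table, ordered and coloured by role. Every interval includes 0, and the intervals of Lss and Acaca come closest to leaving it out, with lower ends at -0.0034 and -0.0044.

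Fold changes of the mevalonate pathway genes were centred near 0, with 5 of 7 above 0 and a median log2 fold change of 0.026 in the authors' deposited table (0.047, with 5 of 7 above 0, without the length trend). Hmgcs1, the cytosolic HMG-CoA synthase of the early mevalonate pathway, had the highest log2 fold change of the 45 genes at 0.19 (standard error, SE, of 0.11, p = 0.0916 unadjusted, DESeq2 Wald test by the authors). That corresponds to 1.14-fold with an interval of 0.979 to 1.33, computed from the authors' deposited table, so neither no change nor an increase of 30% lay outside it. Fdps, which makes farnesyl diphosphate, stood at the other end of this group at -0.079 (SE 0.11) in the authors' deposited table. Between them the authors' deposited table placed the kinases Mvk at 0.059 (SE 0.082, p = 0.472) and Pmvk at 0.051 (SE again in brackets, 0.099), the decarboxylase Mvd at 0.026 (0.10), the thiolase Acat2 at 0.014 (0.084) and the isomerase Idi1 at -0.034 (0.088). By their gene models, several of these genes share sequence or exons with others, and how their reads were assigned was not analysed here. Of the 100-base stretches of the longest Acat2 transcript, 35.3% also occur in its neighbour and near-copy Acat3. For Idi1 20% occur in other gene models, while 26.7% of the exon length of Fdps and 12.1% of that of Hmgcs1 overlap another annotated gene.

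The steps from squalene to cholesterol held both the smallest p and the lowest fold change of the 45 genes. Lss, lanosterol synthase, which closes the squalene epoxide into the first sterol, had a log2 fold change of 0.15 in the authors' deposited table. Its SE was 0.078 and its unadjusted DESeq2 Wald p was 0.0554, and the fold of 1.11 had an interval of 0.998 to 1.23. The longest Lss transcript has 6992 bases, and without the length trend the log2 value was 0.12. Tm7sf2, a sterol C14 reductase, stood at -0.13 (SE 0.088, unadjusted p = 0.129) in the authors' deposited table, and 12.1% of its exon length overlaps Vps51. Of the 11 genes 6 were above 0, and the group's median was 0.016 in the authors' deposited table. Squalene synthase Fdft1, at the branch point to sterols, had -0.0094 (0.065), and the squalene epoxidase Sqle, a rate-limiting enzyme, had 0.085 (0.072) in the authors' deposited table. The lanosterol demethylase Cyp51 had 0.024 (0.067), and the enzymes of C4 demethylation in the authors' deposited table were Msmo1 at -0.0091 (0.073), Nsdhl at 0.096 (0.10) and Hsd17b7 at -0.0099 (0.073). The last steps were as near to 0 in the authors' deposited table: the isomerase Ebp had 0.018 (0.089), the desaturase Sc5d -0.015 (0.065) and the reductase Dhcr7, the enzyme deficient in Smith-Lemli-Opitz syndrome, 0.016 (0.057). Of the exon length of Fdft1, 18.3% overlaps Ctsb on the other strand.

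The regulators had the smallest median SE of the 7 roles, 0.059 in the authors' deposited table. Srebf2, encoding SREBP2, the main activator of sterol genes, had a log2 fold change of -0.0040 with the smallest standard error of the 45 genes, 0.034, in the authors' deposited table. Its fold change of 0.997 carries an interval of 0.953 to 1.04 from the authors' deposited table, which leaves out a change of 5% or more in either direction. Srebf1, whose products drive fatty acid genes, stood at 0.039 (SE 0.064), and the escort gene Scap at -0.0044 (0.050) in the authors' deposited table. An antisense gene model overlaps 13.2% of the exon length of Scap. Insig1, itself an SREBP target, stood at 0.057 (SE 0.070, p = 0.42) and its paralog Insig2 at -0.045 (0.067, p = 0.497) in the authors' deposited table. Nr1h2, encoding LXR beta, stood at 0.025 (0.054), and all 6 intervals of this group lay within ±0.25 in the authors' deposited table.

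Genes of sterol turnover, export and transport likewise had all 6 intervals within ±0.25, with 4 of 6 below 0 and a median log2 fold change of -0.023 in the authors' deposited table. Without the length trend 6 of 6 were below 0 (median -0.029), Abca1 turning to -0.021 and Npc1 to -0.016. Both values are small beside the genes' standard errors of 0.096 and 0.069. The share of all genes below 0 on that scale was not analysed here. Cyp46a1, the neuronal cholesterol 24-hydroxylase that starts cholesterol's exit from the brain, stood at -0.051 (SE 0.040, p = 0.204), or 0.966 of WT with an interval of 0.915 to 1.02, in the authors' deposited table. Of the LXR-driven exporters, Abcg1 stood at -0.048 (SE 0.051, p = 0.352) and Abca1 at 0.027 (0.096) in the authors' deposited table. The lysosomal exporters mutated in Niemann-Pick disease type C stood at 0.0011 (0.069) for Npc1 and -0.024 (0.077) for Npc2, and Soat1, which esterifies cholesterol for storage, at -0.022 (0.092) in the authors' deposited table.

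Among the 4 fatty acid synthesis genes, 3 were above 0, with a median log2 fold change of 0.094 in the authors' deposited table. Their transcripts are long, and without the length trend the median was 0.049, with Acacb at 0.11, Acaca at 0.060, Fasn at 0.039 and Acly at -0.038. Acaca, the cytosolic acetyl-CoA carboxylase that commits carbon to fatty acids, stood at 0.10 in the authors' deposited table (with an SE of 0.055 and an unadjusted Wald p of 0.0602), or 1.07-fold with an interval of 0.997 to 1.16. Of its 100-base transcript stretches 42.8% also occur in the gene model Gm5182, so its reads may have been split. Fasn, fatty acid synthase, stood at 0.085 (SE 0.079, p = 0.28) in the authors' deposited table. Acacb, the isoform at mitochondria that controls fatty acid entry, was the least abundant and least precise of the 45 at 0.15 (0.15), with a mean normalised count of 130 in the authors' deposited table. Acly, which makes cytosolic acetyl-CoA from citrate for both pathways, stood at -0.030 (0.049) there.

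The elongases, which extend fatty acids by cycles of condensation, had the narrowest range in the authors' deposited table apart from sterol transport, from -0.025 to 0.066 with 3 of 6 above 0. Elovl1, which makes very long saturated chains for sphingolipids, stood at 0.066 (SE 0.10, p = 0.518), and Elovl4, which makes the longest chains, at -0.025 (0.056, p = 0.659) in the authors' deposited table. Elovl2 and Elovl5, which act on polyunsaturated chains, stood at 0.038 (0.088) and -0.012 (0.066), while Elovl6, which extends palmitate, stood at -0.024 (0.055) and Elovl7 at 0.013 (0.082) in the authors' deposited table.

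All 5 desaturase genes were above 0, with log2 fold changes from 0.018 to 0.12 and a median of 0.076 in the authors' deposited table. None of them passed. Scd1, a stearoyl-CoA desaturase that makes oleate, stood at 0.12 (SE 0.10, p = 0.258 unadjusted, DESeq2 Wald test by the authors) and its brain-enriched paralog Scd2 at 0.018 (0.054). The front-end desaturases of polyunsaturated fatty acid synthesis stood at 0.025 (0.045) for Fads1 and 0.076 (0.069) for Fads2, and Fads3 at 0.083 (0.075, p = 0.266), in the authors' deposited table. The 5 genes lie in 2 clusters on chromosome 19 of GRCm38, the first with Fads3 from 10040855 to 10060113, Fads2 from 10062765 to 10101503 and Fads1 from 10182877 to 10196874. The second holds Scd2 from 44293676 to 44306864 and Scd1 from 44394450 to 44407709. Only 2.66% of the Scd1 transcript's 100-base stretches and 0.896% of those of Scd2 occur in other gene models. How well the reads themselves were told apart was not tested.

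Levels of the genes spread far more widely than their differences between genotypes. Scaled to the length of the longest GENCODE M21 transcript, Scd2 was highest with 5639 mean normalised counts per kb, followed by Cyp46a1 with 2150, Hmgcs1 with 1876, Fads1 with 1390 and Srebf2 with 1020, all computed from the authors' deposited means. Next came Acly (905), Scd1 (904) and Fads2 (721), on the same scale of deposited mean normalised counts per kb. At the lower end stood Abca1 (94.98), Lss (61.8), Soat1 (44.98) and Acacb (14.8). These levels depend on the length used, 6992 bases for Lss, and which transcript of a gene was expressed was not analysed here. Within gene pairs, the level per kb of Scd2 stood above that of Scd1, that of Srebf2 above that of Srebf1 (284), and that of Acaca (179.5) above that of Acacb. With the merged exon length in place of the longest transcript, Scd2 kept rank 1 and Acacb rank 45, while Hmgcs1 moved to rank 2 and Cyp46a1 to rank 3. The spread of these levels over libraries was not analysed here, so neighbours in the order are not shown to differ.

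**Figure D2:**
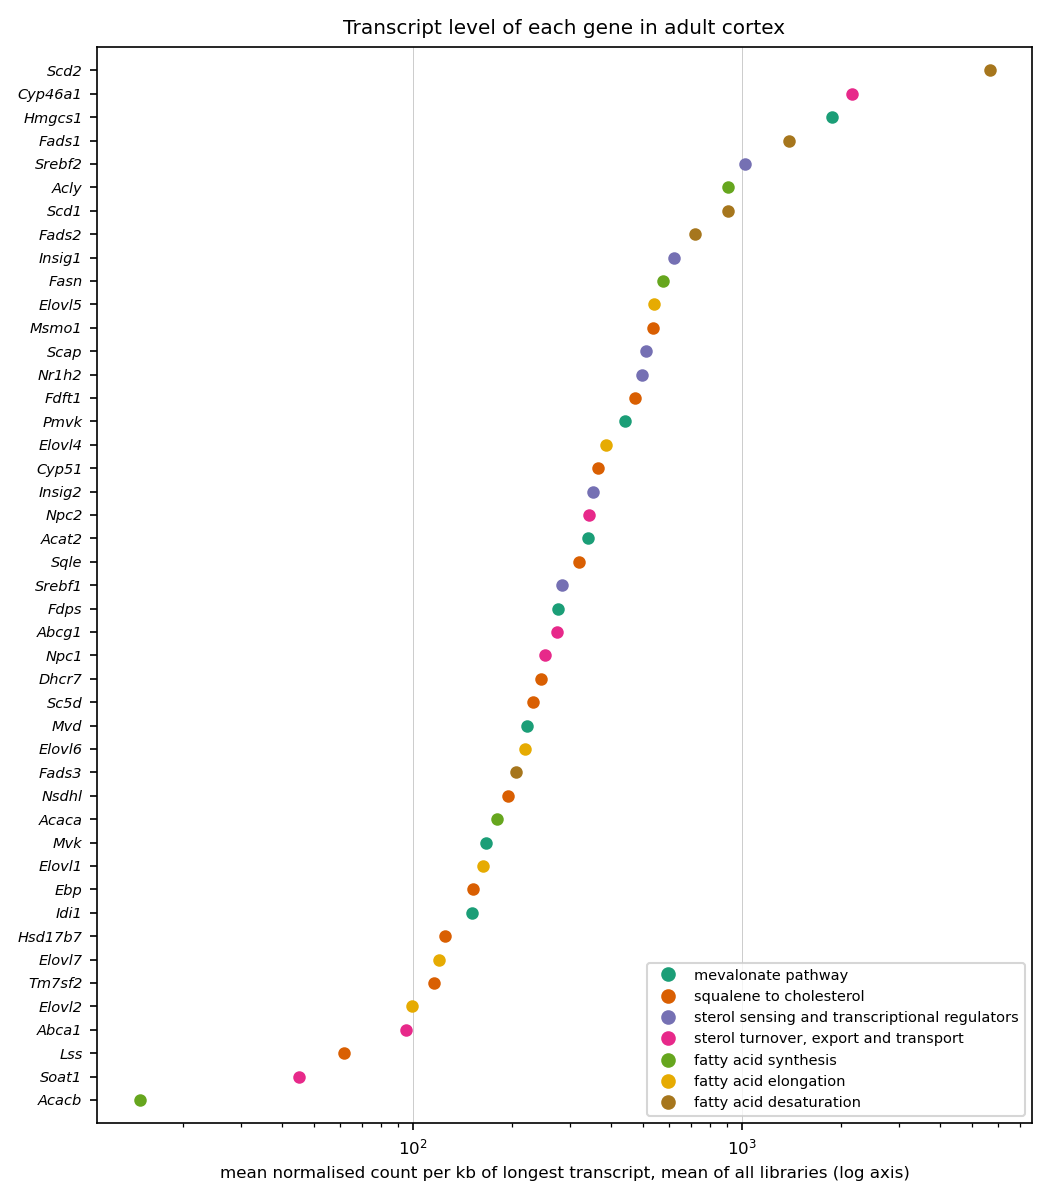
Mean normalised count per kb of longest transcript (log axis) of the 45 genes in order, as a mean over all 10 libraries, coloured by role. Scd2 stands at 5639 and Acacb at 14.8, and the enzymes of sterol synthesis other than Hmgcs1 rank 12 or lower.

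The precision of the fold changes differed between genes of like level. For every gene the deposited standard error, which grows with counting noise and with the spread between libraries of 1 genotype, was ranked among the 500 genes nearest in mean normalised count. The 45 genes had a median percentile of 49.8, as all genes do by construction (50). Hmgcs1 lay at the 96.2 percentile (SE 0.11, against a median of 0.051 for its neighbours), Scd1 at 95 (0.10 against 0.054) and Fdps at 93.8 (0.11 against 0.073), computed from the authors' deposited table. These 3 of 45 genes (6.67%) were at or above the 90th percentile, against 10.2% of all genes, so wide errors were not more common here than elsewhere. Abca1 (89.0) and Fasn (87.4) followed. The opposite end held Dhcr7 at the 1.0 percentile, Srebf2 at 1.8, Nr1h2 at 4.8 and Ebp at 7.0, by the same ranking of deposited standard errors. By role, the median percentile was 74.0 for the mevalonate pathway, where 6 of 7 genes lay above 50, and 31.8 for the regulators, where 1 of 6 did. The cause of the wide errors was not tested.

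**Figure D3:**
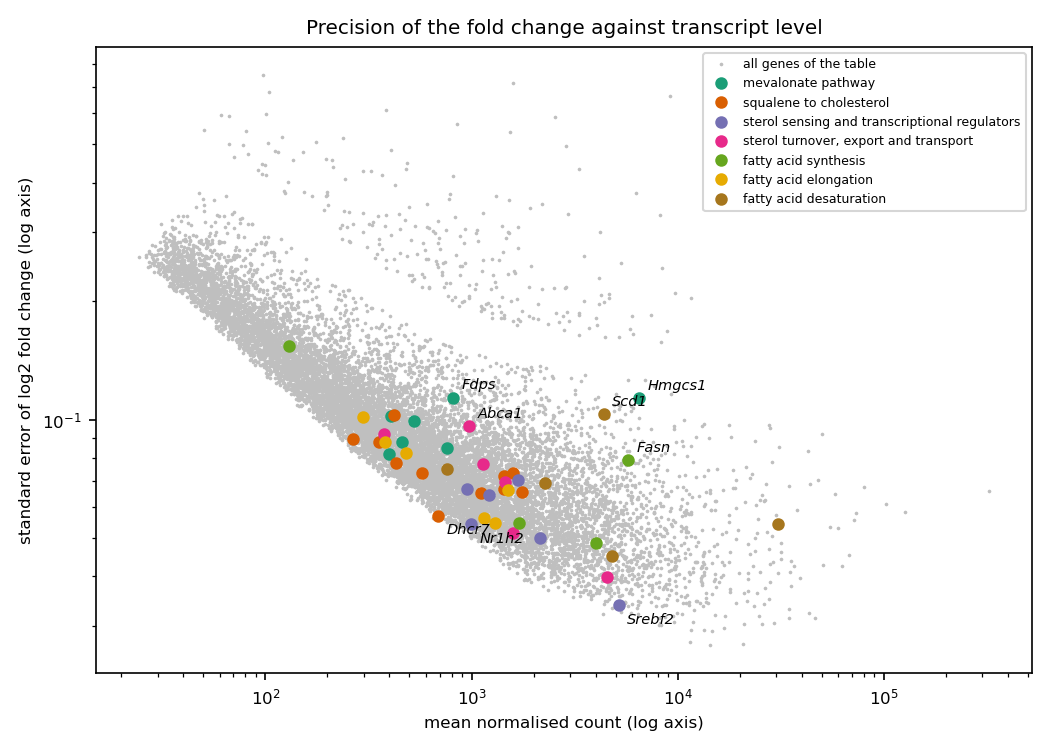
Standard error of the log2 fold change against mean normalised count (both log axes) for all genes of the authors' deposited table (grey) and the 45 genes (coloured by role). Hmgcs1, Scd1, Fdps, Abca1 and Fasn lie above most genes of their level and Srebf2, Dhcr7 and Nr1h2 below.

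No other listed gene of the pathways passed either. Of 47 tested genes among 51 listed for sterol metabolism outside the 45, none passed the adjusted threshold in the authors' deposited table, 27 were below 0 and the median log2 fold change was -0.0076. The 3 with the smallest p in the authors' deposited table were Apod, encoding the lipocalin apolipoprotein D, at -0.15 (SE 0.063, unadjusted p = 0.0173), Lipa, the lysosomal acid lipase, at -0.20 (0.090, p = 0.0281) and Nceh1, a cholesteryl ester hydrolase, at -0.069 (0.046, p = 0.13). Of 48 tested among 50 other fatty acid genes none passed, 20 were below 0, the median was 0.018, and none had an unadjusted p under 0.05 in the authors' deposited table. Those with the smallest DESeq2 p in the authors' deposited table were Gpam, which starts glycerolipid synthesis, at 0.11 (SE 0.056), the peroxisomal enzyme gene Hsd17b4 at -0.10 (0.055) and Fads6 at 0.21 (0.11), with unadjusted p-values of 0.0587, 0.0615 and 0.0643.

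Genes of myelin sphingolipids, which are packed with cholesterol in the myelin sheath, split evenly by sign. Of 12 tested, 6 were below 0 and none passed in the authors' deposited table, against 0.0732% of all genes. Gal3st1, the sulfotransferase that makes sulfatide, had the lowest log2 fold change of this list at -0.35 (SE 0.11, p = 0.00182 unadjusted, adjusted p = 0.65, DESeq2 by the authors). Fa2h, which hydroxylates the fatty acids of myelin lipids, stood at -0.16 (0.081, p = 0.0554) and Gltp, a glycolipid transfer protein, at 0.065 (0.075, p = 0.388) in the authors' deposited table.

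The same table also holds markers of the cell types and neighbouring tissue a cortex sample can contain. In bulk cortex fewer cells of a type and less RNA per cell cannot be told apart. Oligodendrocyte markers, from cells that make much of the brain's cholesterol, were below 0 for 14 of 14, beside 48.4% of all genes. In the authors' deposited table their log2 fold changes ran from -0.16 to -0.027 (median -0.085), none past the threshold. The unadjusted DESeq2 Wald p was under 0.05 for 3 of the 14 (21.4%), against 3.22% of all genes. Astrocyte markers had a median of -0.014 with 7 of 12 below 0. Excitatory neuron markers had one of 0.052 with 1 of 10 below 0. None of either list passed the threshold, and 1 gene of each had an unadjusted Wald p under 0.05. Medians of the authors' deposited log2 fold changes were -0.059 for inhibitory neurons, -0.0055 for microglia and 0.0014 for endothelial and mural cells. No gene of these lists passed the threshold or had an unadjusted Wald p under 0.05. For markers of tissue beside the cortex, the 8 thalamic genes tested of 9 had a median of -0.44 in the authors' deposited table. Of these, 3 were lower past the threshold (Tcf7l2, Ramp3 and Prkcd). The 10 meningeal ones had -0.25 with 1 (Igf2) and the 9 of choroid plexus -0.33 with none. Of all genes 0.0659% were lower past the threshold. Lower with an unadjusted Wald p under 0.05 were 6 of 8 thalamic, 4 of 10 meningeal and 6 of 9 choroid plexus markers. Of all genes 3.22% had such a p, of either sign. All marker lists were chosen with earlier results of these data known, so their medians and counts are not independent of that choice. The most abundant marker of these lists other than microglia, with its log2 fold change in the authors' deposited table, was Mbp (-0.070) for oligodendrocytes, Slc1a2 (0.11) for astrocytes, Camk2a (0.12) for excitatory neurons, Gad1 (-0.016) for inhibitory neurons, Slco1a4 (0.14) for vessels, Igf2 (-0.29) for meninges, Ttr (-0.12) for choroid plexus and Cplx1 (-0.044) for thalamus. Cplx1 averaged 12427 normalised counts, far above the next listed thalamic gene, Slc17a6 (786), and the tissue source of its counts was not tested. No gene tested on these marker lists had a mean normalised count below 58.9. The summed level of the markers in each genotype was not analysed here. Their part in the values of the sterol and fatty acid genes was not tested.

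**Figure D4:**
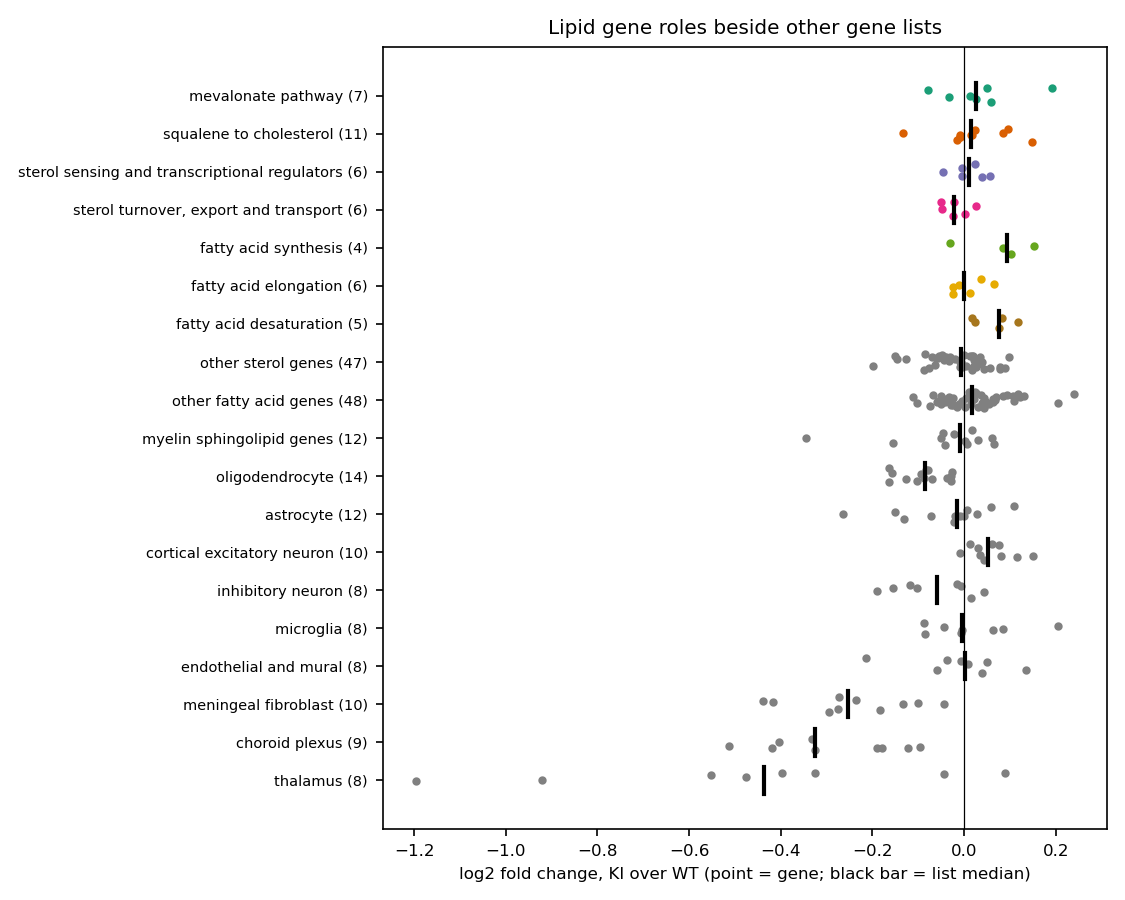
Log2 fold change, KI over WT, of each gene (points) and the median of each list (black bars), from the authors' deposited table, with the number of genes tested in brackets. The 7 lipid roles (coloured) have medians from -0.023 to 0.094 (the latter, of fatty acid synthesis, is 0.049 without the length trend). Meningeal, choroid plexus and thalamic markers (grey) have medians of -0.25, -0.33 and -0.44. All lists were chosen with earlier results of these data known.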

How the data were processed

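Per the submitters' processing notes, reads were processed with Trimmomatic 0.39, HISAT2 2.1.0 (an aligner), featureCounts 2.0.0 (a read counter) and DESeq2 1.26.0 on mm10; their settings, annotation, strand use and filters were not given in the sources used here. Per the file headers, the authors' deposited table gives each gene's mean of normalised counts (a signal value over all libraries), log2 fold change, its standard error, the Wald score, the p-value and the adjusted p-value. The deposited Wald score equalled the log2 ratio over its error, and adjusted p-values equalled a Benjamini-Hochberg adjustment over 13660 genes. Whether fold changes were shrunken is not stated. Replicates are separate samples by their labels, which do not name the animals. The lowest mean normalised count was 24.4, and depth per library is unknown.

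Symbols for 13497 gene numbers and coordinates came from RefSeq for GRCm38, and lengths, overlaps and shared 100-base stretches from GENCODE M21. Intervals are 95% normal intervals. The threshold was an adjusted p of 0.05 over all genes. Calculations used Python 3.11.15 with pandas 2.3.3 and statsmodels 0.14.6 and were tested on simulated data. Genes and lists were chosen with earlier results of these data known. All 45 genes are named, with p-values for the 2 per role with the smallest p. Of other pathway genes the 3 per list with the smallest p are named. Of markers, those past the threshold and the most abundant per list are named, except for microglia, not reported here. The promoters of Lss and Srebf2 were added after values were seen. Alternatives were other thresholds, count minimums of 50 and 200, a minimum log2 change of 0.5, centring, removal of a transcript length trend, and leaving out 8 genes whose exons or sequence are shared at 10% or more.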

Additional observations from a re-analysis of the deposited data

How the results depend on the processing

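None of the 45 genes passed under any alternative run on the authors' deposited DESeq2 results. The runs used thresholds of 0.1 and 0.01, minimum mean normalised counts of 50 and 200, or a minimum log2 change of 0.5. For the 45 genes this outcome was fixed beforehand and is no check of robustness. Each had a deposited adjusted p of 0.99986, and their smallest unadjusted Wald p was 0.0554, which an adjustment cannot lower. Over all genes the count of 10 became 6 at a threshold of 0.01, 5 with a minimum log2 change of 0.5 and 7 with a minimum count of 200, where fewer genes were tested. The median log2 fold change of the 45 genes was 0.018 as deposited, 0.015 when centred and 0.020 without the length trend, with 18, 19 and 20 negative. It was 0.017 for the 44 genes with a count of at least 200 (18 negative) and 0.024 for the 37 left without those that share exons or sequence (13 negative, 35.1% against 40%). No paired analysis was possible because values per library were not analysed here, and for the same reason no replicate could be left out. By role, removing the length trend lowered the fatty acid synthesis median from 0.094 to 0.049, raised that of the mevalonate pathway from 0.026 to 0.047 and turned Abca1 and Npc1 negative.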
